A study of Homo sapiens with 12 samples.

Results

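The dual-specificity phosphatases (DUSPs) that remove phosphate from MAP kinases were examined at the mRNA level in HLE-B3, an immortalized human lens epithelial cell line. The members were taken by gene symbol from a given list and were DUSP1, DUSP2, DUSP4, DUSP5, DUSP6, DUSP7, DUSP8, DUSP10, DUSP14 and DUSP16. All 10 were found among the 58735 genes of the count and FPKM tables. The RNA-seq data comprised 12 libraries in 4 groups of 3 biological replicates, and the comparisons ask how WT and ATG7 KO cells differ before and after oxidative stress. The groups were untreated WT cells (0 h), WT cells exposed to 200 μM H2O2 for 12 h, untreated ATG7 KO cells (0 h) and ATG7 KO cells exposed to 200 μM H2O2 for 12 h. All groups were HLE-B3 cells. The KO cells had been made with CRISPR/Cas9 and a guide RNA against ATG7, an enzyme needed to form autophagosomes. According to the study's methods, the KO cells were clonal and loss of the protein was examined by immunoblot. The labels do not say which clone or clones were sequenced, so the loss of ATG7 and any difference between a clone and the parental line cannot be told apart. Untreated cells were collected at 0 h, so the effect of H2O2 and that of 12 h in culture cannot be told apart either.

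MAP kinases (ERK, JNK and p38) are switched on by phosphorylation of a threonine and a tyrosine in their activation loop, and the DUSPs switch them off by removing both phosphates. Several DUSP genes are themselves switched on by the kinases that their products inactivate, which closes a negative feedback loop. Members differ in place and preference: some are inducible nuclear enzymes, some are cytoplasmic and prefer ERK, and some prefer JNK and p38, the MAP kinases of the stress response.

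ATG7 mRNA was at 2.55 ± 0.313 FPKM (SD, n = 3) in untreated WT and at 3.55 ± 0.205 FPKM (n = 3) in untreated KO cells. After H2O2 it was at 1.96 ± 0.0411 FPKM in WT and at 2.19 ± 0.137 FPKM in KO cells (SD, n = 3 each). FPKM is the fragment count of a gene scaled by its length and by library size. Neither difference passed the test at an adjusted p of 0.01 (edgeR adjusted p = 0.0348 untreated and 0.135 treated). A small edit in the gene need not lower its mRNA, so these values do not check the KO label.

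Of 14 lens epithelium markers, 7 had a mean above 1 FPKM in at least 1 group, led by VIM, CDH2 and GJA1. PAX6 was at 1.27 FPKM in untreated WT cells and SIX3 at 3.06 FPKM, whereas FOXE3, PROX1, MAF, CDH1 and CRYAA stayed below 0.1 FPKM in every library and SOX2 had 0 reads in the 12 libraries. None of the 7 lens fibre markers reached 1 FPKM. Of 8 fibroblast and mesenchyme markers, 6 did, and their summed level was 667 FPKM in untreated WT, 315 FPKM in treated WT, 479 FPKM in untreated KO and 266 FPKM in treated KO cells. COL1A1 was the most abundant of them, at 626, 272, 437 and 243 FPKM in the same order, while DCN and COL3A1 were near 0. Other genes of the list took other courses: ACTA2 was at 1.56, 3.55, 1.06 and 2.48 FPKM, TAGLN at 30.2, 34.4, 20 and 11.2 FPKM and PDGFRB at 4.42, 2.07, 6.34 and 1.69 FPKM. LUM was at 0.168 FPKM in untreated WT and 9.52 FPKM in untreated KO cells. Of the markers of other cells, 1 of 6 for retinal pigment epithelium (MITF), 0 of 4 for endothelium and 2 of 5 for leukocytes (CD14 and LYZ) passed 1 FPKM. The summed leukocyte list was at most 2.66 FPKM in any library, and PTPRC stayed at or below 0.119 FPKM. The part of these differences in the DUSP results was not tested. In bulk RNA, fewer cells of a type and less RNA per cell cannot be told apart.

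Library totals ran from 15602183 to 17659496 counts, with a median of 17205174. Untreated KO replicate 1 stood apart from the other libraries. Its mean correlation with its own group was 0.974 across genes, against 0.983 for the other untreated KO libraries and between 0.9907 and 0.9915 in the other 3 groups. The spread of its counts against replicates 2 and 3 was 77.2 and 75.5 times that of Poisson sampling, whereas the other replicate pairs were between 2.08 and 4.38 times. The deviation of this library from its group went with gene length across genes (Spearman rho = -0.355, genes not being independent replicates). The 3 comparisons that use this library are therefore given with and without it. No pair of replicates agreed within sampling noise. This spread cannot tell separate cultures from separate libraries of 1 culture. Each library was counted as a replicate because the study's methods name 3 biological replicates per group.

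Promoter windows from RefSeq (GRCh38.p14), 250 bases before to 50 bases after the start site, were matched by symbol for 8 of the 10 members (not DUSP4 and DUSP5), with 2 start sites for DUSP10 and thus 9 windows. The windows were searched on both strands for 5 motifs, none of which contains another. The first was TGACGTCA, the full cAMP response element, which factors of the CREB and ATF families bind. The AP-1 motif was searched as TGACTCA in the same windows. For the ETS family of factors the letters were CCGGAAG on either strand. The composite element of the factors ATF4 and CHOP was written as TGATGNAA, and the TATA box was searched for in its common form TATAAA. The full cAMP response element was found in the windows of DUSP1 and DUSP8 only among these 9. It occurred in 649 of 35116 windows of all genes (1.85%), and 21 windows (0.0598%) held 2 or more copies. The AP-1, ETS and ATF4-CHOP motifs were in none of the member windows and in 4.95%, 10.3% and 3.62% of all windows. The TATA box was in the DUSP1 window, where it began at position -30 from the start site, and in 11.5% of all windows. The windows of DUSP1 and DUSP8 are shown because they alone among the 9 held the motif. Both mRNAs were lower in treated KO than in treated WT cells (given later), and so were those of DUSP2, DUSP7 and DUSP14, whose windows did not hold it. They lie on the minus strand at chr5:172771146-172771445 and chr11:1572222-1572521, and capitals mark TGACGTCA.
DUSP1: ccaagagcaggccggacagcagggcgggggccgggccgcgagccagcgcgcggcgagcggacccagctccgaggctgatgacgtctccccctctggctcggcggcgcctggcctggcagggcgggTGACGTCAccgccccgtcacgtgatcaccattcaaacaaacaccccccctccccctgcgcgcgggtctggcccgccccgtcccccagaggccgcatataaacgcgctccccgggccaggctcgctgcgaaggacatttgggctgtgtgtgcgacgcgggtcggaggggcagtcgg
DUSP8: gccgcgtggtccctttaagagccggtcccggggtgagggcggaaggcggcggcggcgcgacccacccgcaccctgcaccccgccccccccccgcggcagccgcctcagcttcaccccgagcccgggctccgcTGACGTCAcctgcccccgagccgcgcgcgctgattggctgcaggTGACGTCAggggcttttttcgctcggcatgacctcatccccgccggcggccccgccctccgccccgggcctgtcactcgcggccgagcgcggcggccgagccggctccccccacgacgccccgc
The motif began at position -125 from the start site in DUSP1, and at -118 and -74 in DUSP8. The DUSP1 start site coincided with the gene's start in the count table, and that of DUSP8 lay 351 bases from it. These matches describe the letters of the windows and were not tested for binding.

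DUSP1 was the most abundant member in all 4 groups, with 41.4% to 43.4% of the members' summed FPKM in untreated WT, 56.5% to 57.5% in treated WT, 35.0% to 38.1% in untreated KO and 42.3% to 43.1% in treated KO libraries. In untreated WT cells the order of the mean levels was DUSP1 (27.6 FPKM), DUSP14 (11), DUSP16 (5.73), DUSP2 (5.51), DUSP7 (4.15), DUSP10 (3.47), DUSP8 (2.60), DUSP5 (2.53), DUSP6 (1.84) and DUSP4 (0.897 FPKM). The libraries of neighbours in this order overlapped for DUSP16 and DUSP2 and for DUSP8 and DUSP5, and did not for the other neighbours. After H2O2 the order in WT cells began with DUSP1 (263 FPKM), DUSP5 (68.6), DUSP14 (48.8) and DUSP7 (21.1 FPKM) and ended with DUSP4 (7.13) and DUSP8 (5.55 FPKM). In untreated KO cells DUSP10, DUSP6, DUSP5, DUSP4, DUSP16 and DUSP7 lay between 6.31 and 4.68 FPKM, and each overlapped its neighbour in the order. In treated KO cells DUSP1 (127 FPKM) was followed by DUSP5 (44.3) and DUSP14 (42.6 FPKM), which overlapped, and DUSP2 was last at 0.973 FPKM.

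**Figure D1:**
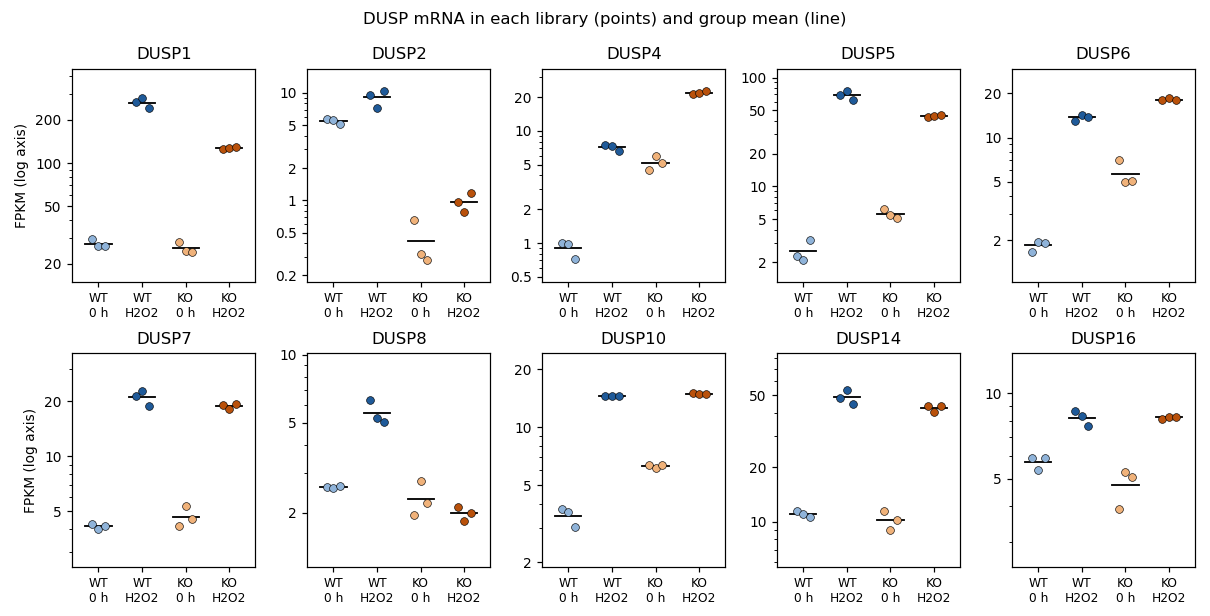
FPKM of each DUSP gene (log axis) in the 3 libraries of each group, as points, with the group mean as a line. WT and KO cells are shown at 0 h and after 12 h of H2O2, and DUSP2 is the member whose KO libraries all lie below its WT libraries in both conditions.

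The summed FPKM of the 10 members was 65.3 ± 2.67 in untreated WT and 460 ± 34.4 in treated WT cells (SD, n = 3 each). In KO cells it was 70.7 ± 3.41 untreated and 299 ± 3.87 treated (SD, n = 3 each). The treated groups did not overlap: WT libraries held 423 to 491 FPKM and KO libraries 296 to 303 FPKM. Abundant members weigh most in such a sum, and mean DUSP1 was 263 FPKM in treated WT and 127 FPKM in treated KO cells. DUSP4 (7.13 and 21.8 FPKM) and DUSP6 (13.7 and 18.2 FPKM) went the other way. DUSP10 and DUSP16 had nearly equal means in the treated lines. The treated groups also differed without overlap in the share of mitochondrial reads, 3.54% to 3.90% in WT and 3.16% to 3.27% in KO libraries, and in the number of genes with a read, 26542 to 27504 and 24646 to 24774. The mitochondrial share did not overlap between the untreated lines either, at 4.485% to 4.97% in WT and 4.29% to 4.42% in KO libraries. The part of these measures in the DUSP results was not tested. The inducible nuclear members DUSP1, DUSP2, DUSP4 and DUSP5 made up 55.9% of the sum in untreated WT, 75.7% in treated WT, 52.0% in untreated KO and 65.0% in treated KO cells. The cytoplasmic ERK-selective members DUSP6 and DUSP7 made up 9.17%, 7.57%, 14.6% and 12.4% in the same order.

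**Figure D2:**
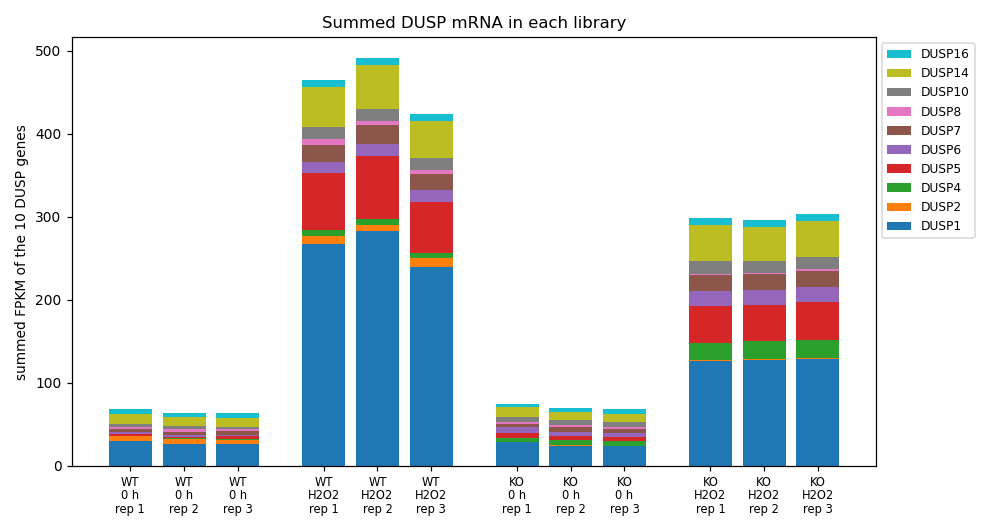
Summed FPKM of the 10 DUSP genes in each of the 12 libraries, with each gene as a segment of the bar. The sum lies between 63.7 and 74.5 FPKM in all untreated libraries, and DUSP1 is the largest segment in each library.

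The mRNA of all 10 members was higher in WT cells after 12 h of H2O2 than at 0 h. By the quasi-likelihood test of edgeR, with p-values adjusted by Benjamini and Hochberg over 15913 genes, 10 of 10 were higher at an adjusted p under 0.01, against 30.9% of all genes tested that were higher and 30.1% that were lower. With the further conditions of a log2 fold change beyond 1 and a mean above 1 FPKM in at least 1 group (the full rule), 8 of 10 were higher, against 7.30% of all genes. DUSP2 and DUSP16 were the exceptions. The median log2 fold change was 2.24 over the members and -0.00535 over all genes tested.

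In KO cells, 8 of 10 members were higher after H2O2, against 13.6% of 15475 genes tested that were higher and 12.4% that were lower. The full rule was met by 7 of 10, against 6.09% of all genes. The median log2 fold change was 1.84 over the members and -0.032 over all genes. Without untreated KO replicate 1, 9 of 10 were higher, against 29.8% of all genes higher and 28.6% lower, and DUSP2 was the member added. DUSP8 did not pass the test with or without that library.

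Among the inducible nuclear members, DUSP1 (MKP-1; ENSG00000120129, chr5:172768090-172771195 in GRCh38), an early response gene whose product acts on p38, JNK and ERK, was the most abundant. DUSP1 was at 29.7, 26.7 and 26.4 FPKM in untreated WT libraries and at 267, 283 and 239.2 FPKM after H2O2. KO libraries held 28.4, 24.3 and 24.0 FPKM untreated and 126, 128 and 128 FPKM treated. The untreated libraries of the 2 lines overlapped through KO replicate 1 alone. Without it the untreated log2 difference was -0.18 and did not pass the test (SE 0.0649, edgeR adjusted p = 0.0133). Each treated KO library lay below each treated WT library. In WT cells DUSP1 rose 9.50-fold (log2 fold change 3.25, SE 0.0566, edgeR adjusted p = 2.97e-32), and in KO cells 4.96-fold (log2 2.31, SE 0.0985, edgeR adjusted p = 1.71e-05). Treated KO cells had less DUSP1 mRNA than treated WT cells (log2 -1.05, SE 0.0436, edgeR adjusted p = 8.66e-17).

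DUSP5 (ENSG00000138166, chr10:110497838-110511544), a nuclear phosphatase selective for ERK, had the widest range of group means of all members, 4.75 on the log2 CPM scale. DUSP5 was at 2.28, 2.12 and 3.19 FPKM in untreated WT libraries and at 68.4, 75.5 and 62.0 FPKM after H2O2. Levels in KO libraries were 6.21, 5.41 and 5.12 FPKM untreated and 43.7, 44.0 and 45.4 FPKM treated. KO libraries lay above WT libraries at 0 h and below them at 12 h, without overlap in either. The rise was 27.02-fold in WT (log2 4.76, SE 0.111, edgeR adjusted p = 2.81e-14) and 7.92-fold in KO cells (log2 2.99, SE 0.105, edgeR adjusted p = 7.32e-06). In WT cells this was the 161st largest rise among 15913 genes, and in KO cells the 234th among 15475.

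DUSP4 (MKP-2), a nuclear phosphatase induced by ERK signalling, had the largest positive log2 difference between untreated KO and WT cells among the members. DUSP4 was at 0.996, 0.974 and 0.722 FPKM in untreated WT libraries and at 7.44, 7.37 and 6.59 FPKM after H2O2. The KO libraries held 4.48, 5.99 and 5.17 FPKM untreated and 21.3, 21.6 and 22.4 FPKM treated. KO libraries exceeded WT libraries in both conditions without overlap. DUSP4 rose from 0 h to 12 h of H2O2 7.91-fold in WT (log2 2.98, SE 0.0954, edgeR adjusted p = 2.27e-30) and 4.16-fold in KO cells (log2 2.06, SE 0.126, edgeR adjusted p = 5.27e-05). KO cells had more DUSP4 mRNA untreated (log2 2.54, SE 0.177, edgeR adjusted p = 0.000252) and treated (log2 1.604, SE 0.0493, edgeR adjusted p = 6.61e-23).

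DUSP2 (PAC-1; ENSG00000158050, chr2:96143166-96145440), a nuclear phosphatase known best from activated lymphocytes, went the other way between the lines. DUSP2 was at 5.76, 5.599 and 5.16 FPKM in untreated WT libraries and at 9.64, 7.26 and 10.5 FPKM after H2O2. In KO cells it was at 0.659, 0.320 and 0.280 FPKM untreated and at 0.967, 0.788 and 1.16 FPKM treated. Every KO library lay below every WT library. The KO values rest on few reads, 10 to 21 per untreated library and 25 to 39 per treated library, so their fold changes are less precise than those of other members. KO cells had 13.2-fold less DUSP2 mRNA untreated (log2 -3.72, SE 0.282, edgeR adjusted p = 0.00034) and 9.42-fold less treated (log2 -3.24, SE 0.166, edgeR adjusted p = 5.36e-17). DUSP2 was 1.66-fold higher in WT cells after H2O2 than at 0 h (log2 0.73, SE 0.116, edgeR adjusted p = 3.79e-07). In KO cells the log2 fold change was 1.22 and did not pass the test (SE 0.371, edgeR adjusted p = 0.0341). It passed with all 12 libraries in one fit (edgeR adjusted p = 0.00511) and with a gene length correction (0.0092), and without untreated KO replicate 1 it was 1.68 (SE 0.403, edgeR adjusted p = 9e-05).

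The cytoplasmic members DUSP6 (MKP-3) and DUSP7 prefer ERK, and DUSP6 is a classical feedback gene of the ERK pathway. DUSP6 was at 1.66, 1.94 and 1.91 FPKM in untreated WT libraries and at 13.02, 14.2 and 13.9 FPKM after H2O2. In KO cells it was at 6.99, 4.96 and 5.03 FPKM untreated and at 18.1, 18.5 and 18.0 FPKM treated. KO libraries lay above WT libraries in both conditions, and replicate 1 was the highest of the untreated KO libraries. DUSP6 rose 7.43-fold in WT cells (log2 2.89, SE 0.0814, edgeR adjusted p = 1.06e-32) and 3.21-fold in KO cells (log2 1.68, SE 0.145, edgeR adjusted p = 0.000198). KO cells had more DUSP6 mRNA untreated (log2 1.62, SE 0.167, edgeR adjusted p = 0.00107) and treated (log2 0.40, SE 0.0499, edgeR adjusted p = 2.74e-08). The untreated call was lost without WT replicate 1, 2 or 3 (edgeR adjusted p = 0.0115, 0.0111 and 0.0105). The treated call was lost with all 12 libraries in one fit (edgeR adjusted p = 0.0112). DUSP7 lay between 3.98 and 5.37 FPKM in all untreated libraries and between 18.2 and 22.9 FPKM in all treated ones. It rose 5.06-fold in WT and 4.02-fold in KO cells. WT and KO libraries of DUSP7 overlapped in both conditions, at 0 h through untreated KO replicate 1 alone.

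Among the members selective for JNK and p38, DUSP8 was the only member that passed the test in WT and not in KO cells both with and without untreated KO replicate 1. DUSP8 was at 2.60, 2.58 and 2.62 FPKM in untreated WT libraries and at 6.34, 5.26 and 5.05 FPKM after H2O2. DUSP8 levels in KO cells were 1.96, 2.76 and 2.20 FPKM untreated and 2.13, 1.85 and 1.99 FPKM treated. The treated WT libraries lay above all 9 other libraries, and the treated and untreated KO libraries overlapped through untreated KO replicate 1 alone, replicates 2 and 3 lying above all treated KO libraries. DUSP8 rose 2.13-fold in WT cells (log2 1.09, SE 0.0989, edgeR adjusted p = 1.31e-13), and its log2 fold change in KO cells was -0.22 (SE 0.162, edgeR adjusted p = 0.305). Without untreated KO replicate 1 it was -0.33 (SE 0.131, edgeR adjusted p = 0.0196), and without replicate 2 it was -0.075 (edgeR adjusted p = 0.72). The test of the difference between the lines is given with the interaction. Treated KO cells had 2.81-fold less DUSP8 mRNA than treated WT cells (log2 -1.49, SE 0.105, edgeR adjusted p = 8.13e-14). Among the members with a promoter window (not DUSP4 and DUSP5), DUSP8 and DUSP1 alone held TGACGTCA. Whether the motif bears on these levels was not tested.

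DUSP10 (MKP-5), which acts on p38 and JNK, differed between the lines at 0 h and by far less at 12 h. DUSP10 was at 3.76, 3.62 and 3.03 FPKM in untreated WT libraries and at 14.5, 14.6 and 14.5 FPKM after H2O2. In KO cells it was at 6.35, 6.18 and 6.39 FPKM untreated and at 15.1, 14.9 and 14.9 FPKM treated. The untreated groups did not overlap, and the treated KO libraries lay only just above the treated WT libraries. KO cells had more DUSP10 mRNA at 0 h (log2 0.86, SE 0.123, edgeR adjusted p = 0.00393), a call lost in 6 of 16 alternative fits, 5 of them with a library left out (edgeR adjusted p 0.0152 to 0.0249, all but that without untreated KO replicate 1). The treated difference was 0.03 (95% interval -0.09 to 0.15, edgeR adjusted p = 0.621). From 0 h to 12 h of H2O2, DUSP10 rose 4.16-fold in WT and 2.36-fold in KO cells. DUSP16 (MKP-7), which prefers JNK, had the narrowest range of group means among the members, 0.793 on the log2 CPM scale. It lay between 3.92 and 5.91 FPKM in untreated and between 7.66 and 8.64 FPKM in treated libraries. DUSP16 rose 1.43-fold in WT cells (log2 0.51, SE 0.0679, edgeR adjusted p = 4.9e-09) and 1.72-fold in KO cells (log2 0.78, SE 0.132, edgeR adjusted p = 0.00329). In KO cells this call was lost without untreated KO replicate 3 (edgeR adjusted p = 0.0101) or without any of the treated KO replicates (0.0178, 0.0185 and 0.0182).

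DUSP14 is a small atypical DUSP without the MAP kinase-binding domain of the classical members, and it was the second most abundant member before treatment. It lay between 9.03 and 11.5 FPKM in the untreated libraries and between 40.4 and 53.3 FPKM in the treated libraries of both lines. DUSP14 rose 4.41-fold in WT cells (log2 2.14, SE 0.0627, edgeR adjusted p = 5.4e-32) and 4.15-fold in KO cells (log2 2.05, SE 0.113, edgeR adjusted p = 3.69e-05). Its profile over the 12 libraries was closest to that of DUSP7, with a root mean square difference of 0.183 in mean-centred log2 CPM. This was the smallest among the 45 pairs of members, and the largest was that of DUSP2 and DUSP4, 2.88.

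Before treatment, the lines differed in 5 of 10 members. DUSP4, DUSP6, DUSP5 and DUSP10 were higher in KO cells and DUSP2 was lower. These 4 of 10 higher and 1 of 10 lower compare with 4.42% and 3.28% of 15357 genes tested. By the full rule 3 members were higher and 1 was lower, against 2.27% and 1.23% of all genes. Without untreated KO replicate 1, 5 of 10 were higher and 1 was lower, against 18.2% and 17.9% of all genes. DUSP7 was then added (log2 0.26, SE 0.0872, edgeR adjusted p = 0.00838). The count of higher members was 1 without WT replicate 1 or without WT replicate 2 (DUSP4), and 2 without WT replicate 3 or without KO replicate 2 or 3. The count over all genes fell as well, from 679 of 15357 higher with all libraries. It was 181 of 15844, 180 of 15730 and 180 of 15809 without WT replicates 1, 2 and 3. Without KO replicates 2 and 3 it was 334 of 15794 and 336 of 15767. The adjusted p of the lost calls lay between 0.0105 and 0.0415 (edgeR). DUSP4 and DUSP2 passed the test in each of these fits. With a replicate block, DUSP5 and DUSP10 lost the call (edgeR adjusted p = 0.0185 and 0.0173), and 313 of 15357 genes were higher.

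After treatment, 2 of 10 members were higher in KO than in WT cells and 6 were lower, against 27.7% and 27.9% of 15909 genes tested. DUSP4 and DUSP6 were higher. DUSP1, DUSP2, DUSP5, DUSP7, DUSP8 and DUSP14 were lower. By the full rule, DUSP4 was higher and DUSP1, DUSP2 and DUSP8 were lower, that is 1 and 3 of 10, against 3.03% and 4.43% of all genes. The median log2 fold change was -0.183 over the members and -0.00218 over all genes. The differences of DUSP7 (log2 -0.16, SE 0.052, edgeR adjusted p = 0.00731) and DUSP14 (log2 -0.20, SE 0.0513, edgeR adjusted p = 0.00105) were small. With all 12 libraries in one fit, the DUSP6 call was lost (edgeR adjusted p = 0.0112). The DUSP7 call was lost in 10 of 16 alternative fits, among them those without WT replicate 1 or 2 or any treated KO replicate (edgeR adjusted p 0.0178 to 0.0783). That of DUSP14 was lost in 6, among them those without treated WT replicate 2 (0.016) or treated KO replicate 2 (0.024).

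**Figure D3:**
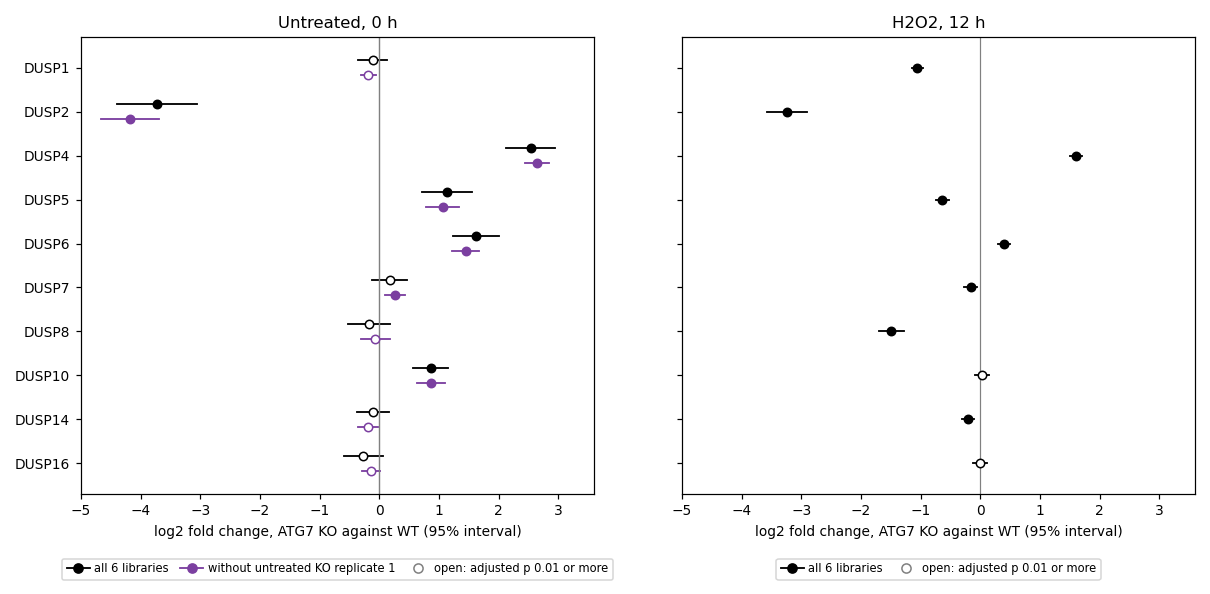
Log2 fold change of each DUSP gene in ATG7 KO against WT cells, untreated (left) and after H2O2 (right), as points with 95% intervals, where filled points passed an adjusted p of 0.01. DUSP4 and DUSP6 lie to the right of 0 in both panels, DUSP2 to the left in both, and DUSP5 to the right at 0 h and to the left after H2O2.

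The difference of the H2O2 responses was tested as an interaction over all 12 libraries. The response of 6 of 10 members was smaller in KO than in WT cells, against 7.01% of 16856 genes tested with a smaller or more negative response and 7.02% with a larger or less negative one. The 6 were DUSP5 (log2 -1.77, SE 0.182, edgeR adjusted p = 6.16e-05), DUSP8 (-1.31, SE 0.19, edgeR adjusted p = 5e-04), DUSP6 (-1.21, SE 0.17, edgeR adjusted p = 0.000413), DUSP1, DUSP4 and DUSP10. For DUSP1 the difference was -0.94 (SE 0.123, edgeR adjusted p = 0.000286), for DUSP4 -0.93 (SE 0.174, edgeR adjusted p = 0.00236) and for DUSP10 -0.82 (SE 0.12, edgeR adjusted p = 0.000517). DUSP7 (-0.33), DUSP14 (-0.09), DUSP16 (0.27) and DUSP2 (0.50) did not pass the test. With single libraries left out, DUSP2 ran from 0.28 (without untreated KO replicate 3) to 0.96 (without replicate 1, edgeR adjusted p = 0.0228), and DUSP16 from 0.15 (without untreated KO replicate 1) to 0.36 (without replicate 2). The sign of DUSP2 turned with limma on log2(FPKM + 1) and that of DUSP14 without untreated KO replicate 1. The median difference was -0.872 over the members and -0.0329 over all genes. Without untreated KO replicate 1 the response of 7 of 10 members was smaller, against 16.3% of genes with a smaller and 17.8% with a larger response, DUSP7 being added (-0.41, SE 0.095, edgeR adjusted p = 0.000259). The DUSP4 difference was -0.22 (adjusted p = 0.215) with limma on log2(FPKM + 1), a scale that understates changes of low values, and passed in the other 20 alternatives. In DUSP4, DUSP5, DUSP6 and DUSP10 the untreated level was higher in KO cells, and in DUSP1 and DUSP8 the untreated libraries of the lines overlapped, in DUSP1 through untreated KO replicate 1 alone.

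**Figure D4:**
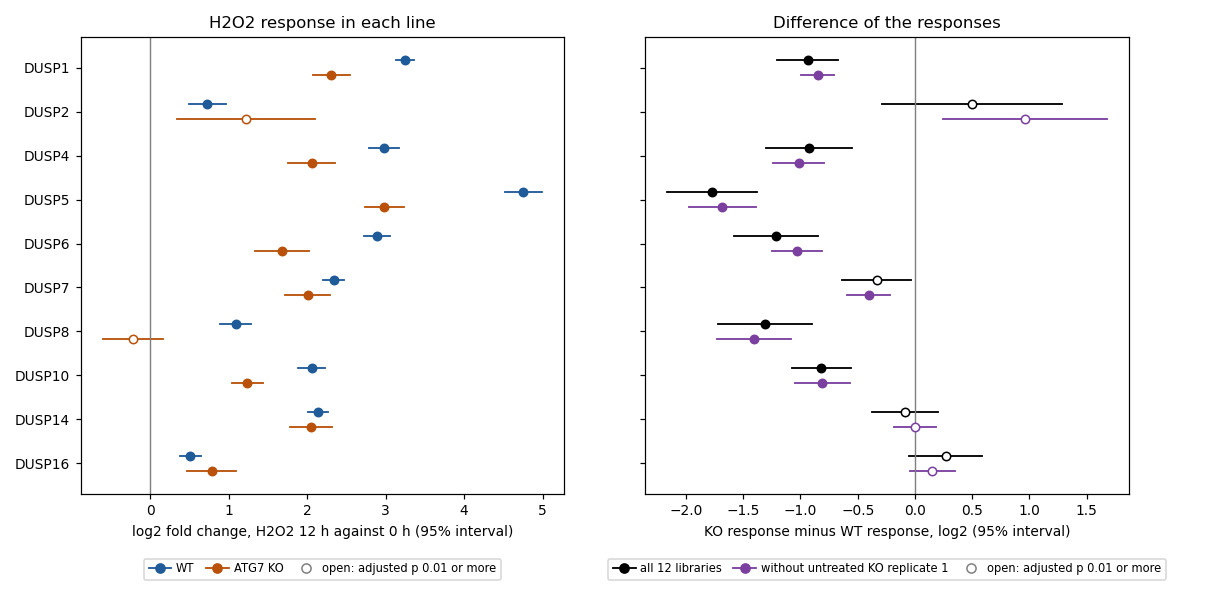
Log2 fold change with H2O2 in WT and KO cells (left) and the KO response minus the WT response (right) for each DUSP gene, as points with 95% intervals, where filled points passed an adjusted p of 0.01. The difference of responses is shown for all 12 libraries and without untreated KO replicate 1, and DUSP5 lies farthest to the left in both.

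Other genes of the pathway were counted by lists, and the values in parentheses are log2 fold changes. In WT cells after H2O2, 10 of 12 ERK output genes (genes widely used as readouts of ERK activity) were higher and 2 were lower, with a median log2 fold change of 1.29. FOS (5.12), PHLDA1 (3.23) and EPHA2 (2.69) rose most, and ETV1 (-1.73) and ETV5 (-0.36) fell. Of 7 Sprouty and SPRED genes, feedback inhibitors of receptor tyrosine kinase signalling, 5 were higher and 1 was lower, led by SPRY4 (log2 3.08) and SPRY1 (1.88). Of 6 other phosphatases of MAP kinases tested, 3 were higher and 1 was lower, and PPM1D (log2 2.49), a phosphatase of p38 and a p53 target, rose most. Of 11 other dual-specificity phosphatases tested, 4 were higher and 4 were lower, with a median of -0.0916, and DUSP11 (1.59) and DUSP9 (1.57) rose most. Over all genes tested, 30.9% were higher and 30.1% lower. Of the kinases, 5 of 13 MAP kinases were higher and 6 lower, 3 of 6 MAP2 kinases higher and 1 lower, and 5 of 10 kinases activated by MAP kinases higher and 2 lower. Of 21 MAP3 kinases, 3 were higher and 11 lower, with a median of -0.237. MAP2K3, an activator of p38, rose most among the MAP2 kinases (log2 2.13).

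In KO cells after H2O2, 6 of 12 ERK output genes were higher and 1 was lower, with a median log2 fold change of 0.709, where 13.6% of all genes were higher and 12.4% lower. Without untreated KO replicate 1 these counts were 7 and 2. PHLDA1 (2.40), EPHA4 (2.28) and EPHA2 (2.16) rose most. Of the Sprouty and SPRED genes, 3 of 6 tested were higher and none was lower (3 and 2 of 7 without that library), led by SPRY4 (1.78). Of 11 other dual-specificity phosphatases, 2 were higher, DUSP9 (3.06) and DUSP11 (1.56), and 3 were higher and 1 was lower without untreated KO replicate 1. Of 6 other phosphatases of MAP kinases, 3 were higher, led again by PPM1D (2.51), and 3 were higher and 1 was lower, PPM1B (-0.47), without that library. Among the kinases, 4 of 12 MAP kinases were higher and 2 lower, 3 of 21 MAP3 kinases were higher and 2 lower, 3 of 10 kinases activated by MAP kinases were higher, and 1 of 6 MAP2 kinases, MAP2K5 (-0.87), was lower. Without that library the counts were 5 and 4, 8 and 8, 3 and 2, and 3 and 3, where 29.8% and 28.6% of all genes were called.

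**Figure D5:**
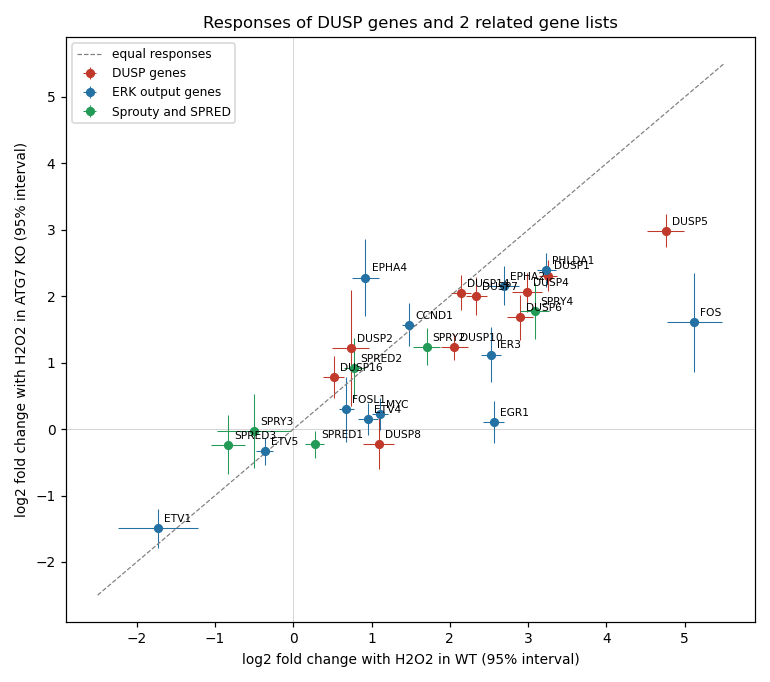
Log2 fold change with H2O2 in WT cells (horizontal axis) and in KO cells (vertical axis) for the 10 DUSP genes, 12 ERK output genes and 6 Sprouty and SPRED genes tested in both lines, as points with 95% intervals and a dashed line of equal responses. DUSP5, DUSP8, FOS (WT 5.12) and EGR1 (WT 2.56) lie farther below the line than DUSP14 and DUSP7, and EPHA4 lies above it.

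Between the untreated lines, ERK output genes moved in both directions: 4 of 12 were higher in KO cells, led by IER3 (1.46), ETV1 (1.34) and PHLDA1 (1.33), and 1 was lower, MYC (-0.69), against 4.42% and 3.28% of all genes. The counts were 5 and 4 without untreated KO replicate 1, against 18.2% and 17.9%. SPRY2 (0.93) was the Sprouty or SPRED gene that was higher, and 4 of 7 were higher and 1 was lower without that library. MAP2K3 (0.69) was higher and MAP3K13 (-0.74) was lower. In the fit without untreated KO replicate 1, 1 of 6 MAP2 kinases was higher and 3 were lower, 7 of 21 MAP3 kinases were higher and 3 lower, and 3 of 10 other dual-specificity phosphatases were higher and 3 lower. There 1 of 6 other phosphatases of MAP kinases was higher and 1 lower, and 2 of 10 kinases activated by MAP kinases were higher. After H2O2, 4 of 12 ERK output genes were higher in KO than in WT cells and 5 were lower, FOS (-3.99), EGR1 (-3.03) and MYC (-1.58) most. FOS was at 11.7 FPKM in treated WT and 0.736 FPKM in treated KO cells, and EGR1 at 56.02 and 6.90 FPKM. Of 21 MAP3 kinases, 13 were higher and 2 lower, with a median of 0.294, where 27.7% of all genes were higher and 27.9% lower. Of 13 MAP kinases 5 were higher and 2 lower, of 6 MAP2 kinases 1 and 3, of 10 kinases activated by MAP kinases 5 and 2, of 7 Sprouty and SPRED genes 3 and 2, and of 6 other phosphatases 2 and 2. Of 11 other dual-specificity phosphatases 4 were higher, led by STYX (1.24).

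The difference of the responses was negative in 6 of 12 ERK output genes and positive in 1 (8 and 1 without untreated KO replicate 1), with a median of -0.667. Over all genes 7.01% had a negative and 7.02% a positive difference (16.3% and 17.8% without that library). FOS (-3.51), EGR1 (-2.45) and IER3 (-1.40) had the most negative differences, and EPHA4 (1.36) the positive one. Of 7 Sprouty and SPRED genes 2 had a smaller response in KO cells, SPRY4 (-1.31) and SPRED1 (-0.50), with and without that library. MAP2K3 had a difference of -1.80, and its mean level was 55.8 FPKM in treated WT and 25.8 FPKM in treated KO cells. Of the lists with positive medians, 3 of 11 other dual-specificity phosphatases had a positive difference, DUSP19 (1.48), DUSP18 (1.16) and STYX (0.75), and the list's median was 0.119. DUSP9, itself a MAP kinase phosphatase but not on the list of members and singled out after its values were seen, had a difference of 1.49 that did not pass the test (SE 0.602, edgeR adjusted p = 0.0779), at mean levels of at most 0.487 FPKM. When untreated KO replicate 1 was left out, 4 of the 11 had a positive and 1 a negative difference. Of 21 MAP3 kinases 3 had a positive and 1 a negative difference, with a median of 0.352, and without that library 11 and 2. Of 13 MAP kinases 2 were positive and 1 negative (3 and 1 without it), and 1 of 10 kinases activated by MAP kinases was positive (2 positive and 2 negative without it). MAP2K3 was the 1 of 6 MAP2 kinases called, and without that library 1 was positive and 2 were negative.

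The 3 members with the widest ranges of group means, DUSP5, DUSP4 and DUSP2, were compared with 13297 genes over the 12 libraries by the root mean square difference of mean-centred log2 CPM. EFNB1, which encodes an ephrin ligand, was closest to DUSP5, at 0.343, where the median over the genes was 2.03. It was at 9.65 FPKM in untreated WT, 194 FPKM in treated WT, 14.0 FPKM in untreated KO and 168 FPKM in treated KO cells. RRAD (0.432) and PHLDA3 (0.449) were next. PHLDA3 was at 61.2 FPKM in treated WT and 71.6 FPKM in treated KO cells, where DUSP5 was lower in KO cells. The profiles closest to DUSP4 were those of PTHLH (0.336), SOX7 (0.354) and PRDM1 (0.357), where the median was 1.68. IGFBP3, which encodes a binding protein of insulin-like growth factors, was closest to DUSP2, at 0.316 against a median of 1.83, with 215 and 273 FPKM in untreated and treated WT cells and 15.1 and 32.2 FPKM in untreated and treated KO cells. FOLR3 (0.545) and PSG4 (0.558) followed, both with means below 1 FPKM in KO cells. PSG4 was at 1.19 FPKM in untreated and 0.833 FPKM in treated WT cells, where DUSP2 rose.

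Genes on the opposite strand overlap 4 members, and the strand setting of the counting was not given in the sources used here, so reads of the overlaps cannot be assigned with certainty. The overlapping genes had at most 7 counts in a library for DUSP1 (AC022217.3), 13 for DUSP6 (AC024909.2), 30 for DUSP8 (KRTAP5-AS1) and 3 for DUSP16 (AC007619.1). The members themselves reached 9142, 1447, 496 and 839 counts in a library.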

How the data were processed

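RNA-seq of 12 HLE-B3 libraries was used, 3 in each of 4 groups taken from the labels. The authors deposited a count of reads per gene, with totals of 15602183 to 17659496 per library. The deposited FPKM values were normalized by the authors for gene length and library size. The submitters' processing notes name HISAT2 2.0.5, featureCounts 1.5.0-p3 and GRCh38. From the counts, edgeR 4.0.16 in R 4.3.3 was run with filterByExpr (minimum count 10), TMM factors and its quasi-likelihood test, the p-values being adjusted by Benjamini and Hochberg over all genes tested. Each comparison used the libraries of its 2 groups, and the interaction all 12. A call needed an adjusted p under 0.01, and the full rule also a log2 fold change beyond 1 in either direction and a mean above 1 FPKM in at least 1 group. FPKM served for levels, SD being over 3 replicates. The scripts were tested on simulated data. Those data gave every library the same spread, so they did not cover a library that stands apart like untreated KO replicate 1.

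All 10 members passed the filter in every comparison and were named. Of each other list, up to 3 genes with the largest log2 fold changes in each direction could be named among those called. Genes of like pattern were the 3 closest to each of the 3 members with the widest ranges. Alternatives were DESeq2 1.42.0, other normalization factors and filters, a replicate block, limma 3.58.1 on log2(FPKM + 1) and log2(FPKM + 0.1), all 12 libraries in one fit, each library left out in turn and, chosen after seeing the data, a gene length correction. The members and lists were chosen with earlier results of these data known. Promoter sequences came from RefSeq (GRCh38.p14) and matched 8 of 10 members. The p-values reflect the spread of these replicates.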

Additional observations from a re-analysis of the deposited data

Results flagged for a closer look

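The H2O2 response differed between ATG7 KO and WT cells by the interaction test for 6 of 10 members. Over the 16856 genes tested, 7.01% had a negative and 7.02% a positive difference. The difference, KO minus WT on the log2 scale, was -1.77 for DUSP5 (edgeR adjusted p = 6.16e-05), -1.31 for DUSP8 (edgeR adjusted p = 5e-04) and -1.21 for DUSP6 (edgeR adjusted p = 0.000413). It was -0.94 for DUSP1 (edgeR adjusted p = 0.000286), -0.93 for DUSP4 (edgeR adjusted p = 0.00236) and -0.82 for DUSP10 (edgeR adjusted p = 0.000517). Without untreated KO replicate 1 the differences were -1.68, -1.41, -1.03, -0.85, -1.02 and -0.81 in the same order of genes. In that fit 16.3% of all genes had a negative and 17.8% a positive difference. The DUSP4 call was lost with limma on log2(FPKM + 1) (-0.22, limma adjusted p = 0.215).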

How the results depend on the processing

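Of 170 counts of members under alternative settings, 163 were within 1.5 times of the reported count and 7 were not. Of 848 fold changes of members, 793 had the same direction and side of the threshold, 37 lost the call, 5 gained it and 13 changed sign. All 10 calls of the WT response held in the 16 alternatives. Of 128 counts for other lists, 46 moved by over 1.5 times. Leaving out untreated KO replicate 1 does not apply to the WT response and the treated comparison, which do not use it.

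The samples share only a replicate number (correlation of same-numbered deviations -0.0429 to 0.0976 over 12 pairs). With a replicate block, 2 members in place of 4 were higher in untreated KO cells, DUSP5 and DUSP10 losing the call (edgeR adjusted p = 0.0185 and 0.0173), and 313 and 186 of all genes were higher and lower in place of 679 and 503. With each library left out, 1 to 5 members were higher in untreated KO cells, and from 180 of 15730 to 2891 of 15848 genes. With all 12 libraries in one fit, 1 member in place of 2 was higher in treated KO cells. Over all genes, 2355 of 16856 were higher there in place of 4414 of 15909.

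The treated difference changed sign for DUSP10 with upper quartile factors (-0.0069) and for DUSP16 with no filter (0.027), limma on log2(FPKM + 1) (0.0042) and log2(FPKM + 0.1) (0.0049) and all 12 libraries (0.00098), with -0.054 to 0.032 when libraries were left out. The interaction of DUSP2 was -0.15 with limma on log2(FPKM + 1), and that of DUSP14 0.17 with the gene length correction, chosen after seeing the data, and -0.16 to 0.0029 with libraries left out. None of these values passed the test, and the cause was not tested.

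Counts over all genes, higher and lower, also moved. The KO response had 2107 and 1918, against 4768 and 4573 without untreated KO replicate 1, 3308 and 3220 with all 12 libraries, 1455 and 1231 without untreated replicate 3, and 1045 and 733, 1045 and 722, and 1046 and 740 without treated replicates 1, 2 and 3. The untreated comparison had 1349 and 1162 with DESeq2, 420 and 299 or 407 and 282 with limma, 1665 and 1489 with all 12 libraries, 996 and 807 with the gene length correction, 2891 and 2843, 334 and 197, and 336 and 198 without KO replicates 1, 2 and 3, and 181 and 113, 180 and 107, and 180 and 108 without WT replicates 1, 2 and 3. The treated comparison had 4414 and 4433, against 2355 and 2521 with all 12 libraries. The interaction had 1184 and 1182, against 1791 and 1912 with DESeq2, 2000 and 2054 with no filter, 3122 and 2852 without untreated KO replicate 1 and, without 1 of the WT or treated KO libraries, 622 to 822 and 710 to 845. With no filter the median of all genes was 0.201 in the WT response, -0.117 in the treated comparison and -0.121 in the interaction. Depth limits DUSP2 in KO cells, at 10 to 39 counts per library.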
